A study of Rattus norvegicus with 8 samples.

Results

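Matrix metalloproteinases, ADAMTS proteases and their tissue inhibitors were followed in the dorsal-caudal lung of rats exposed to injurious ventilation. The set held 10 genes: the metalloproteinases Mmp2, Mmp8, Mmp9 and Mmp14, the inhibitors Timp1, Timp2 and Timp3, and the ADAMTS genes Adamts1, Adamts4 and Adamts15. Every probe set annotated with exactly 1 of these symbols was taken, which gave 16 of the 20214 probe sets that are not array controls, or 10 of the 11217 genes with a probe set of their own. 6 of the genes were read by 1 probe set each and 4 by several. RNA came from 8 male Sprague-Dawley rats of 340 to 400 g: 3 ventilated prone, 3 ventilated supine and 2 not ventilated (NV). Both ventilated groups were anesthetized, received a tracheotomy and a jugular cannula, and were ventilated for up to 3 hours at 40 breaths per minute, with breaths of 18 mL per kg and a PEEP (end-expiratory pressure) of 0 cmH2O. The labels do not say whether NV rats had the same anesthesia and surgery, so ventilation and preparation cannot be told apart in the comparisons with NV lungs. Supine titles read SVt and prone titles HVt, but both groups carry the condition High Vt, which was followed.

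Matrix metalloproteinases are zinc enzymes that cut collagens, gelatin and other proteins of the extracellular matrix, and they are made as inactive precursors. ADAMTS enzymes are related secreted proteases with thrombospondin repeats, several of which cut the large proteoglycans aggrecan and versican. TIMPs bind the active site of these enzymes and block it. In the lung, neutrophils store Mmp8 and Mmp9 protein in their granules, while fibroblasts, endothelium and epithelium supply much of the Mmp2, Mmp14 and TIMPs.

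Values were log2 GCRMA summaries, and each comparison was fitted with limma over all 16896 probe sets that reached log2 5 on at least 2 of the 8 arrays. All 16 member probe sets passed this filter. 4 of them, those of Mmp8, Mmp9 and Adamts4, reached it on no NV array and so passed only through the ventilated lungs, where they had to be higher; their counts below carry no weight as evidence. Array medians lay between 7.77 and 7.95. Alveolar type 2 markers averaged 12.98 to 13.73 on the ventilated arrays and 13.81 and 13.91 on the NV arrays in these lung samples. Of 11 lists of cell type markers, the mean of 3 (neutrophils, smooth muscle with pericytes, and cardiac muscle) was higher on all ventilated than on all NV arrays. That of 5 was lower (endothelium, mesothelium, alveolar type 1, alveolar type 2 and lymphocytes). All tested cardiac markers, and Cxcr2 of the neutrophil list, were under log2 5 on both NV arrays. They too passed the filter only through ventilated lungs, so their higher values there carry no weight as evidence. The beta-actin control probes pointed to poorer RNA on supine replicate 3, where the 3′ signal exceeded the 5′ signal by 9.10 log2 units, against 3.16 to 4.64 on the other arrays. The NV group had only 2 arrays, which limits every comparison with it. The titles call the samples biological replicates, and the p-values weigh group differences against the spread between these samples within groups.

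At an adjusted p under 0.05 (limma, Benjamini-Hochberg over all tested probe sets) 0 of the 16 member probe sets passed in prone against NV lungs, 0 in supine against NV, 0 in supine against prone and 0 in all ventilated against NV lungs. The same rule called 0.0533%, 0.0533%, 0% and 0.142% of all tested probe sets. At an unadjusted p under 0.05 the members counted 4 in prone against NV (25% of 16, against 17.7% of all), 4 in supine against NV (25% against 15.2%), 1 in supine against prone (6.25% against 4.09%) and 5 in all ventilated against NV (31.2% against 19.2%). Groups did not overlap for 11 members in prone against NV (68.8%, against 48.6% of all), of which 5 were higher (31.2% against 20.9%) and 6 lower (37.5% against 27.7%). They did not overlap for 10 in supine against NV (62.5% against 41.8%), 6 higher (37.5% against 20%) and 4 lower (25% against 21.8%), and for 8 in all ventilated against NV (50% against 29.6%), 5 higher (31.2% against 12.9%) and 3 lower (18.8% against 16.7%). Between supine and prone lungs 1 did not overlap (6.25% against 5.89%). The median absolute log2 difference was 1.29 in prone against NV lungs, against 0.54 over all probe sets, and 1.19 in supine against NV lungs, against 0.54. Between positions it was 0.42 among members and 0.32 over all. The 4 probe sets that passed the filter only through ventilated lungs are among these members. Comparisons with NV lungs share the same 2 NV arrays. The plot of member values by array shows where these differences came from.

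**Figure D1:**
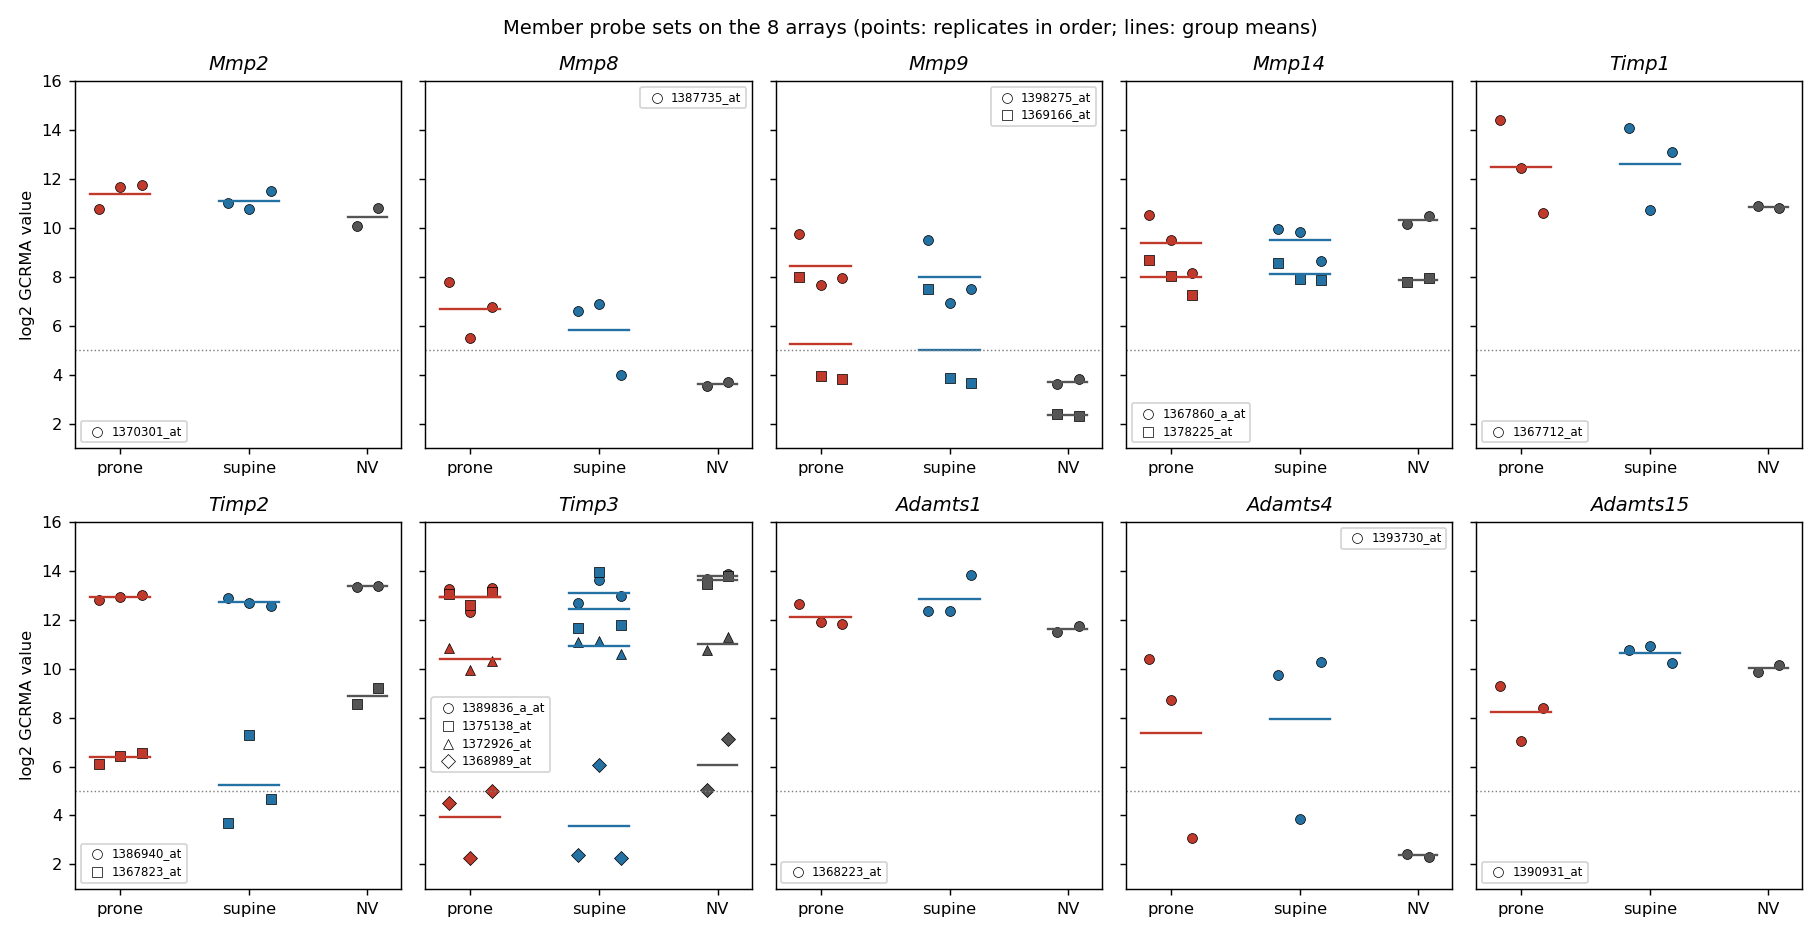
Log2 GCRMA values of the 16 member probe sets, 1 panel per gene, in 3 prone, 3 supine and 2 NV lungs; marker shapes are probe sets, horizontal lines are group means and the dotted line is the filter at log2 5. Mmp9, Mmp8 and Adamts4 sit near the low end of the scale in NV lungs, and Adamts15 lies below the NV arrays in prone lungs and above them in supine lungs.

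The 2 metalloproteinases of neutrophil granules were higher in the ventilated lungs. Mmp9, gelatinase B, read 9.73, 7.68 and 7.94 on its probe set 1398275_at in prone lungs and 9.51, 6.94 and 7.49 in supine lungs, against 3.62 and 3.81 in NV lungs. Every ventilated array lay far above both NV arrays, and the first replicate was the highest in each position. The difference was 4.73 ± 0.86 in prone against NV lungs (log2, SE; adjusted p = 0.0929) and 4.26 ± 0.86 in supine against NV lungs (adjusted p = 0.179), or 4.50 ± 0.77 over both positions (adjusted p = 0.0816). None passed the threshold. The call was gained when the replicate number was a random block, at adjusted p = 0.0362 in prone and 0.0316 in all ventilated lungs, while a fixed block gave none. The second probe set, 1369166_at, read 7.998 in prone replicate 1 and 7.51 in supine replicate 1, but 3.66 to 3.94 in the other ventilated lungs, against 2.39 and 2.30 in NV lungs. Its difference of 2.92 ± 1.53 in prone lungs was 1.55 without prone replicate 1, and its difference of 2.66 ± 1.53 in supine lungs was 1.41 without supine replicate 1. Both Mmp9 probe sets thus separated every ventilated from every NV array, but the sizes differed outside the first replicates. Both passed the filter only through ventilated lungs, 1369166_at only through the first replicates, so the separation carries no weight as evidence.

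Mmp8, neutrophil collagenase, read 7.80, 5.52 and 6.77 in prone lungs and 6.59, 6.90 and 3.98 in supine lungs, against 3.56 and 3.70 in NV lungs. All ventilated arrays were above both NV arrays, supine replicate 3 only narrowly. The difference was 3.07 ± 0.96 in prone (adjusted p = 0.178) and 2.19 ± 0.96 in supine lungs (adjusted p = 0.336), and without supine replicate 3 the supine value was 3.12. The NV values of Mmp8 and Mmp9 1398275_at were close to the 10th percentile of all probe sets, which was 3.41 and 3.37 on the NV arrays, and those of Mmp9 1369166_at were below it. No detection call was available to tell such values from background. The size of these differences is therefore uncertain.

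The mean of the tested neutrophil markers was higher in the same lungs. 5 of 11 listed markers were tested (S100a8, S100a9, Csf3r, Cxcr2 and Camp), and their mean was 9.13 to 12.42 in prone and 9.38 to 11.79 in supine lungs, against 7.99 and 8.19 in NV lungs. All 5 had higher group means in both positions, with 0 past the threshold over all probe sets and median differences of 2.13 and 2.44. Camp overlapped with NV lungs in both positions. It read 10.76, 6.72 and 7.52 in prone and 10.24, 5.72 and 7.58 in supine lungs, against 6.62 and 7.54 in NV lungs. S100a8, a subunit of calprotectin, was 2.55 ± 0.79 higher in prone (adjusted p = 0.177) and 2.57 ± 0.79 in supine lungs (adjusted p = 0.252). Cxcr2, a chemokine receptor on this list, read 7.68, 2.61 and 2.92 in prone and 5.98, 5.29 and 2.86 in supine lungs, against 2.32 and 2.23 in NV lungs. It passed the filter only through ventilated lungs. In a bulk tissue sample, more cells of a type and more RNA per cell cannot be told apart, and the part of neutrophils in the Mmp8 and Mmp9 differences was not tested. By root-mean-square distance between log2 profiles over the 8 arrays, each centred on its own mean, the genes nearest to Mmp8 were S100a8 (0.67), Lrg1 (0.70) and S100a9 (0.81). Those nearest to Mmp9 were Stfa2l2 (0.61), Bcl3 (0.69) and Il1r2 (0.72). The plot of Mmp8, Mmp9 and neutrophil markers by array sets them side by side.

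**Figure D2:**
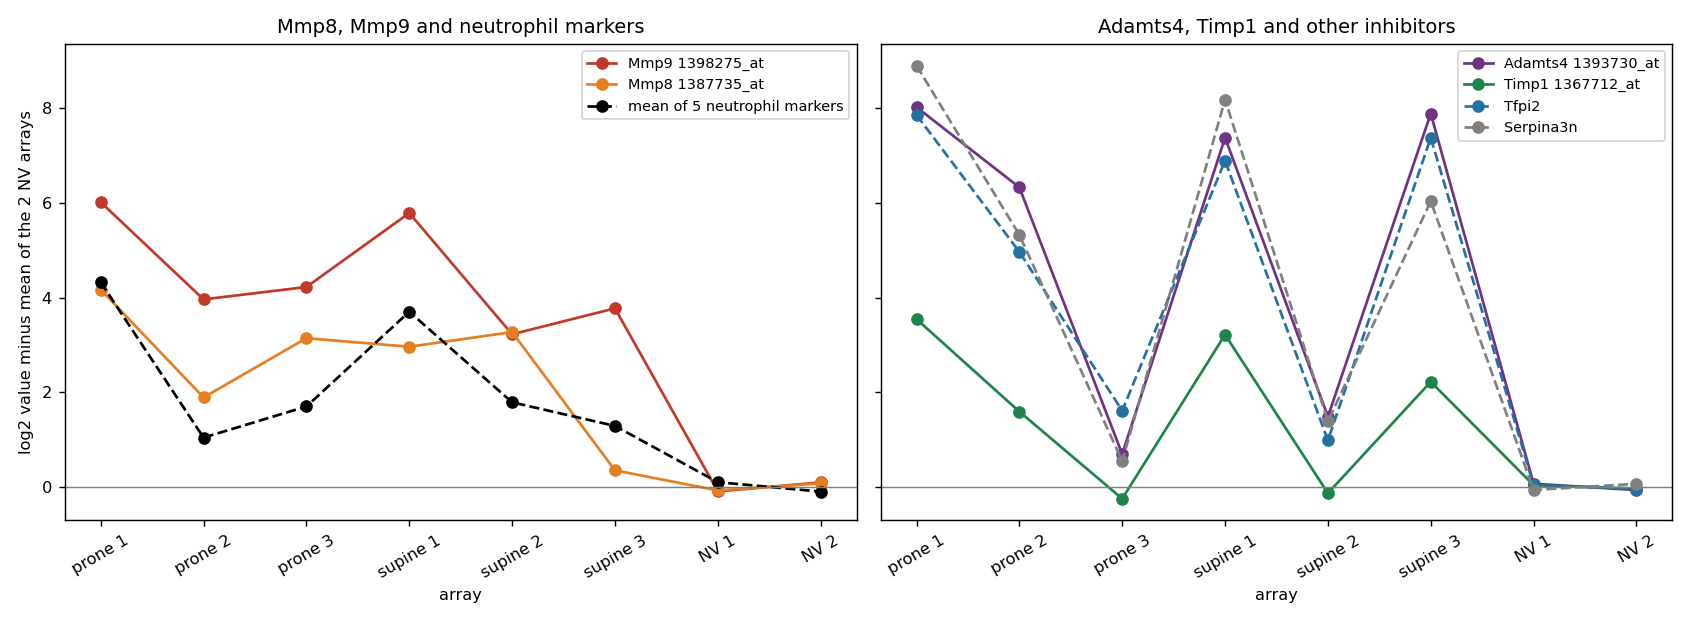
Log2 value minus the mean of the 2 NV arrays, array by array. Left: Mmp9 and Mmp8 with the mean of 5 neutrophil markers, which peak in replicate 1 of each position except for Mmp8 in supine lungs; right: Adamts4 and Timp1 with the inhibitors Tfpi2 and Serpina3n, all high in prone replicates 1 and 2 and supine replicates 1 and 3 and low in prone replicate 3 and supine replicate 2.

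Mmp2, gelatinase A, and Mmp14, the membrane-bound protease that activates it, did not pass in any comparison, and for Mmp14 the probe sets disagreed. Mmp2 read 10.76, 11.66 and 11.76 in prone and 11.02, 10.78 and 11.49 in supine lungs, against 10.06 and 10.81 in NV lungs. The lowest array of each ventilated group lay just below the higher NV array, so groups overlapped. Its difference was 0.96 ± 0.43 in prone (adjusted p = 0.302) and 0.66 ± 0.43 in supine lungs (adjusted p = 0.478), and NV replicate 1 held much of it, since without it the values were 0.58 and 0.29. The 2 probe sets of Mmp14 went opposite ways in the comparisons with NV lungs. 1367860_a_at read 10.54, 9.50 and 8.15 in prone and 9.98, 9.83 and 8.67 in supine lungs, against 10.17 and 10.50 in NV lungs, a difference of -0.94 ± 0.71 in prone and -0.84 ± 0.71 in supine lungs. It was lowest in prone replicate 3 and supine replicate 3, without which the values were -0.31 and -0.43. For 1378225_at the differences were 0.14 ± 0.45 and 0.24 ± 0.45, and the prone one turned to -0.21 without prone replicate 1. The intervals allowed a change of Mmp14 in either direction: -2.59 to 0.71 and -0.92 to 1.198 in prone lungs for the 2 probe sets.

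Timp1, the most inducible of the inhibitors in inflammation, varied more between animals than between groups. It read 14.41, 12.45 and 10.61 in prone and 14.08, 10.73 and 13.08 in supine lungs, against 10.90 and 10.83 in NV lungs. Prone replicates 1 and 2 and supine replicates 1 and 3 were above both NV lungs, and prone replicate 3 and supine replicate 2 were below both. The group differences were 1.63 ± 1.23 in prone (adjusted p = 0.532) and 1.77 ± 1.23 in supine lungs (adjusted p = 0.501), both within the spread between replicates. Without prone replicate 1 the prone value was 0.67 and without prone replicate 3 it was 2.57; without supine replicate 1 the supine value was 1.04 and without supine replicate 2 it was 2.72. The genes nearest to Timp1 in profile were Irak3 (distance 0.38), Creb3l1 (0.44) and Tifa (0.47).

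Adamts4, an aggrecanase, showed the same split of arrays at a larger scale. It read 10.39, 8.70 and 3.06 in prone and 9.75, 3.85 and 10.26 in supine lungs, against 2.43 and 2.30 in NV lungs. The same 4 ventilated arrays were high, while prone replicate 3 and supine replicate 2 were far lower, though still above both NV arrays. The differences of 5.02 ± 2.48 in prone (adjusted p = 0.346) and 5.58 ± 2.48 in supine lungs (adjusted p = 0.342) did not pass. The NV values lay below the 10th percentile of their arrays, so the size of these differences is uncertain too. Leaving out any 1 array moved them between 3.51 and 7.18 in prone and between 4.43 and 7.64 in supine lungs. Nearest to Adamts4 were Tfpi2 (0.60), a Kunitz-type inhibitor of serine proteases, Sphk1 (0.84) and Serpina3n (0.84), a serpin. Cardiac muscle markers were also higher in prone replicate 2 and supine replicate 3: the mean of the 4 tested of 6 listed was 8.86 in prone replicate 2 and 7.23 in supine replicate 3, 3.18 to 4.25 in the other ventilated lungs, and 2.91 and 2.96 in NV lungs. Adamts4 was similarly high in prone replicate 1 and supine replicate 1, where that mean was 4.25 and 4.10. The markers differed, however. Myl4 read 5.48 to 8.78 on the same 4 ventilated arrays where Adamts4 was high. It read 2.89 in prone replicate 3 and 3.06 in supine replicate 2, against 2.96 and 2.94 in NV lungs. Tnni3, Myl7 and Tnnt2 were far higher in prone replicate 2 and supine replicate 3 than on any other array. The part of cardiac tissue in the Adamts4 values was not tested.

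The upstream sequences of Timp1 and Adamts4, which shared this split, and of Mmp8, which did not, are given for reference, from the RefSeq promoter table of the GRCr8 build. 6 of the 10 genes had an entry: Mmp8, Timp1, Timp2, Timp3, Adamts1 and Adamts4. The 250 bases before the start site the table uses are shown 5′ to 3′ on the gene's strand. Capitals mark matches on either strand to an ETS motif (AGGAAG), a C/EBP motif (TTGCNNAA) or an AP-1 variant (TGAGTAA), which did not overlap each other.
Timp1, chrX:3771123-3771372, minus strand: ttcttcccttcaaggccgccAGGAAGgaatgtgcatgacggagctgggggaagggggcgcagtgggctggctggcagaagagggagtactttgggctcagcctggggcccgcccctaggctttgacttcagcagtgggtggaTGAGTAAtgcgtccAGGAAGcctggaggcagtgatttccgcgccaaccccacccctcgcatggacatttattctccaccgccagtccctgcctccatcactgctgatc
Adamts4, chr13:86202761-86203010, plus strand: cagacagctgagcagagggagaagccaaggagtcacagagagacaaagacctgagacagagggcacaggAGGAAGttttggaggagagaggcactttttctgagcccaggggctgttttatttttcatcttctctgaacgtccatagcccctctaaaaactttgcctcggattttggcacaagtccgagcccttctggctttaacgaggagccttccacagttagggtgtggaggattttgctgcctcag
Mmp8, chr8:13008640-13008889, plus strand: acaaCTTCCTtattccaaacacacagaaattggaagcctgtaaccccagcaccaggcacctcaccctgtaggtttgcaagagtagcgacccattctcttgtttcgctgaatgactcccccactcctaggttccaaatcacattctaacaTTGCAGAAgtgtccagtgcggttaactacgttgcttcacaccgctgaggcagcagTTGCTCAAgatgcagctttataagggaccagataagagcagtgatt

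The ETS letters were found in 3 of the 6 members with an entry, and in 29.5% of the 33469 promoters of the table. The Timp1 window held them at 230 and at 94 bases before the start, and the AP-1 variant at 108 bases, which 2.38% of all promoters hold. The C/EBP letters occurred only in the Mmp8 window among the 6, starting 101 and 46 bases before the start, and in 9.22% of all promoters. The AP-1 consensus TGANTCA and the NF-kappaB consensus were in none of the 6 windows, against 6.34% and 3.54% of all. A match is no evidence of binding, and the windows are short.

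Timp2 and Timp3 had lower means in ventilated than in NV lungs on all 6 of their probe sets, none of which passed. Timp2, which also takes part in the activation of Mmp2 by Mmp14, read 12.81, 12.91 and 12.996 on 1386940_at in prone and 12.88, 12.70 and 12.57 in supine lungs, against 13.34 and 13.37 in NV lungs. All ventilated arrays were below both NV arrays, within a narrow range. The difference was -0.45 ± 0.26 in prone (adjusted p = 0.413) and -0.64 ± 0.26 in supine lungs (adjusted p = 0.309). Probe set 1367823_at read 6.09, 6.44 and 6.57 in prone and 3.69, 7.31 and 4.68 in supine lungs, against 8.57 and 9.22 in NV lungs, again with no overlap. Here the difference was -2.53 ± 0.93 in prone (adjusted p = 0.225) and -3.67 ± 0.93 in supine lungs (adjusted p = 0.213), and the supine one passed without supine replicate 2 (-4.70, adjusted p = 0.0317). The probe sets thus had the same direction and very different sizes.

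Timp3, which stays bound to the matrix and also inhibits ADAMTS enzymes, was read by 4 probe sets. Over all ventilated against NV lungs their differences were -0.76 ± 0.38 (1389836_a_at), -0.93 ± 0.60 (1375138_at), -0.36 ± 0.33 (1372926_at) and -2.32 ± 1.20 (1368989_at), with adjusted p from 0.32 to 0.579. The first of these read 13.25, 12.30 and 13.28 in prone and 12.70, 13.61 and 12.96 in supine lungs, against 13.67 and 13.88 in NV lungs, and was the Timp3 probe set on which all 6 ventilated arrays lay below both NV arrays. On 1375138_at supine replicate 2 read 13.94, above both NV arrays, while supine replicates 1 and 3 read 11.66 and 11.77. For 1372926_at the supine difference was -0.07 ± 0.37, with an interval of -0.94 to 0.80. Probe set 1368989_at read 4.50, 2.28 and 5.01 in prone and 2.37, 6.06 and 2.28 in supine lungs, against 5.03 and 7.10 in NV lungs. Its values in prone replicate 2 and supine replicates 1 and 3 lay below the 10th percentile of their arrays. Its difference over all ventilated lungs was -3.36 without NV replicate 1 and -1.29 without NV replicate 2, so its size is uncertain.

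RNA quality differed within the supine group. The 3′ minus 5′ beta-actin gap was 4.64, 3.16 and 9.10 in its replicates 1 to 3. Timp2 1367823_at and Timp3 1375138_at and 1368989_at were picked because supine replicate 2 read far above both other supine arrays. Lower values in replicates 1 and 3, with the wider gaps, were thus fixed by the choice. Replicate 1 read below replicate 3 on the first (3.69 against 4.68) and second (11.66 against 11.77), and above it on the third (2.37 against 2.28). Of the probe sets not picked, Timp3 1389836_a_at and 1372926_at were also highest in supine replicate 2, and Timp2 1386940_at in supine replicate 1. The part of RNA quality in these differences was not tested. The gaps were 3.21 to 3.52 in prone lungs and 4.06 and 3.31 in NV lungs. Without supine replicate 3 the supine difference of Timp3 1375138_at was -0.82 in place of -1.17, and without supine replicate 2 it was -1.91. Mesothelial markers, genes of the cells covering the lung surface, were lower too: 5 of 6 listed were tested, with a mean of 5.39 to 7.15 in prone and 4.89 to 6.12 in supine lungs, against 8.70 and 8.78 in NV lungs. Among them Bnc1 passed (-3.72 ± 0.28 in prone, adjusted p = 0.0172, and -3.79 ± 0.28 in supine lungs, adjusted p = 0.0164). Bnc1 reached log2 5 only on the NV arrays (6.88 and 6.60) and read 2.69 to 3.11 in ventilated lungs. It thus passed the filter only through the group where it was high, and its call carries no weight as evidence. Endothelial markers had means of 12.15 to 12.996 in prone and 12.05 to 12.96 in supine lungs, against 13.07 and 13.13 in NV lungs, with 0 of 5 past the threshold. Their part in the Timp2 and Timp3 values was not tested.

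**Figure D3:**
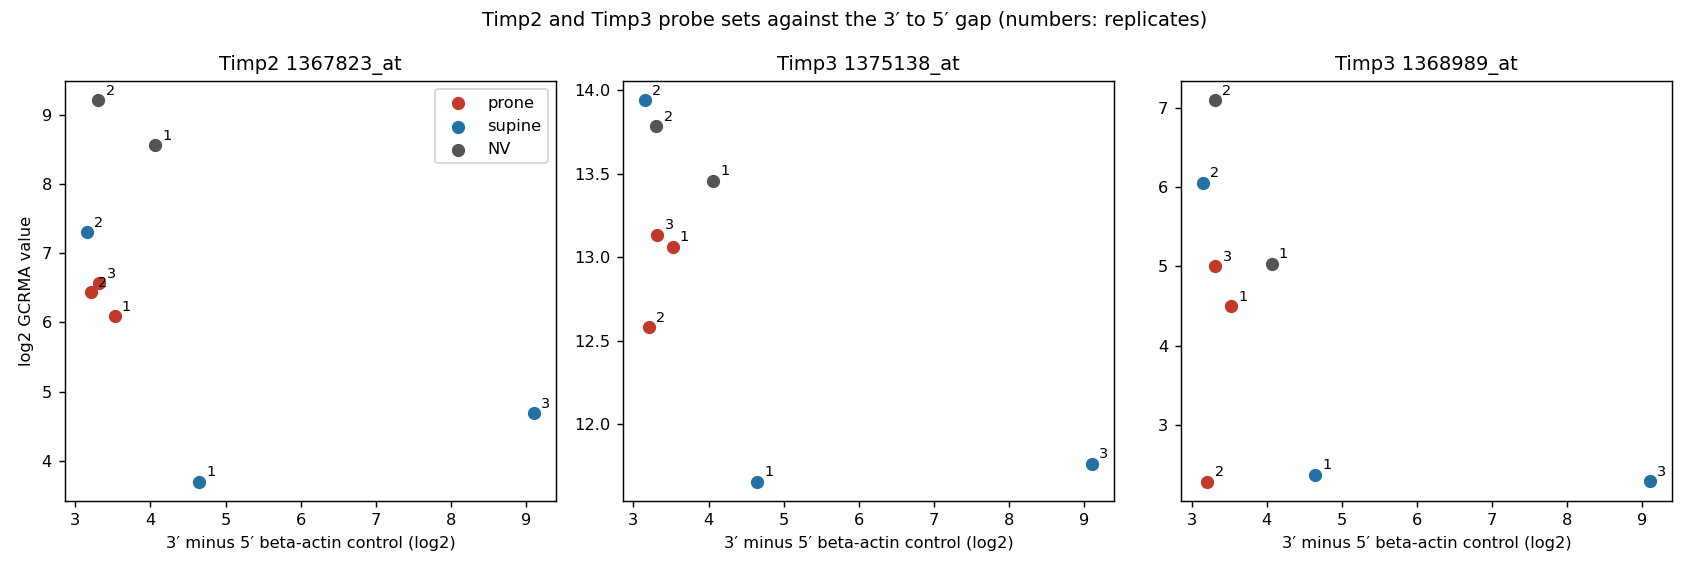
Log2 values of 1 Timp2 and 2 Timp3 probe sets (vertical) against the log2 gap between the 3′ and 5′ beta-actin controls of each array (horizontal); colours are groups and numbers replicates. The probe sets were picked because supine replicate 2 read far above both other supine arrays. Supine replicates 1 and 3, with gaps of 4.64 and 9.10, are the lowest arrays on the first and second panels, replicate 1 below replicate 3. On the third panel prone replicate 2, with a gap of 3.21, is the lowest (2.28). The prone arrays have gaps of 3.21 to 3.52.

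Adamts1, an ADAMTS protease that cuts versican and aggrecan, was higher in every ventilated lung than in both NV lungs. It read 12.65, 11.91 and 11.81 in prone and 12.35, 12.35 and 13.83 in supine lungs, against 11.50 and 11.75 in NV lungs. Prone replicates 2 and 3 were only just above the higher NV array. The difference was 0.50 ± 0.52 in prone (adjusted p = 0.654) and 1.22 ± 0.52 in supine lungs (adjusted p = 0.328), and the supine difference was 0.72 without supine replicate 3, the array with the widest beta-actin gap. Supine minus prone was 0.72 ± 0.47 (interval -0.37 to 1.81, adjusted p = 0.942).

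Adamts15, another member of the aggrecan-cutting group, was the 1 member whose supine and prone values did not overlap. It read 10.78, 10.93 and 10.23 in supine and 9.29, 7.05 and 8.38 in prone lungs, and NV lungs lay between them at 9.87 and 10.15. All prone arrays were below both NV arrays and all supine arrays above both. Supine minus prone was 2.41 ± 0.55 (interval 1.13 to 3.69), a 5.31-fold difference with an unadjusted limma p of 0.00267 and an adjusted p of 0.942, a value it shares with other probe sets, Mmp8 and Adamts1 among them. Within replicate numbers the differences were 1.49, 3.88 and 1.85, and with the number as a fixed block the adjusted p was 0.67. Prone minus NV was -1.77 ± 0.61 (adjusted p = 0.206) and supine minus NV was 0.64 ± 0.61 (adjusted p = 0.619). Leaving out any 1 array kept supine minus prone between 1.81 and 2.93, and prone minus NV was -1.18 without prone replicate 2. The pattern of prone below and supine above NV held for 19 of the 16896 tested probe sets (0.112%). For all 11 marker lists of cell types the supine and prone ranges of the mean level overlapped, but single markers did not. Tcf21, a fibroblast marker, read 10.75, 10.30 and 10.99 in supine and 10.08, 9.48 and 8.80 in prone lungs, against 10.75 and 11.55 in NV lungs. It was the 1 fibroblast marker of 6 tested with a higher supine than prone mean, and the other 5 were lower. Msln, a mesothelial marker, read 7.201, 8.05 and 7.52 in supine and 9.03, 10.36 and 8.12 in prone lungs, against 10.25 and 10.28 in NV lungs. Of the 5 tested mesothelial markers 4 were lower in supine than in prone lungs and 1 was higher. Tcf21 and Msln both had an adjusted p of 0.942 between positions, and their part in the Adamts15 values was not tested. The genes nearest to Adamts15 were P2ry14 (0.46), Prr5l (0.50) and Eri2 (0.50).

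The other 15 probe sets overlapped between supine and prone lungs, with adjusted p of 0.942 or more for every member. Within replicate numbers, supine minus prone had 1 sign in all 3 pairs for 4 of the 16 probe sets (25%, against 32% of all). These were Adamts15, Timp3 1372926_at (0.24, 1.18 and 0.27), Mmp9 1398275_at (-0.23, -0.74 and -0.45) and Mmp9 1369166_at (-0.48, -0.087 and -0.19). With the replicate number as a fixed block 0 members passed. Without the block, intervals of the difference were narrow for Timp2 1386940_at (-0.73 to 0.35) and wide for Adamts4 (-4.60 to 5.74), so differences of several log2 units in Adamts4 or Timp1 (-2.43 to 2.71) were not detectable with these arrays. The plot of differences gives all intervals.

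**Figure D4:**
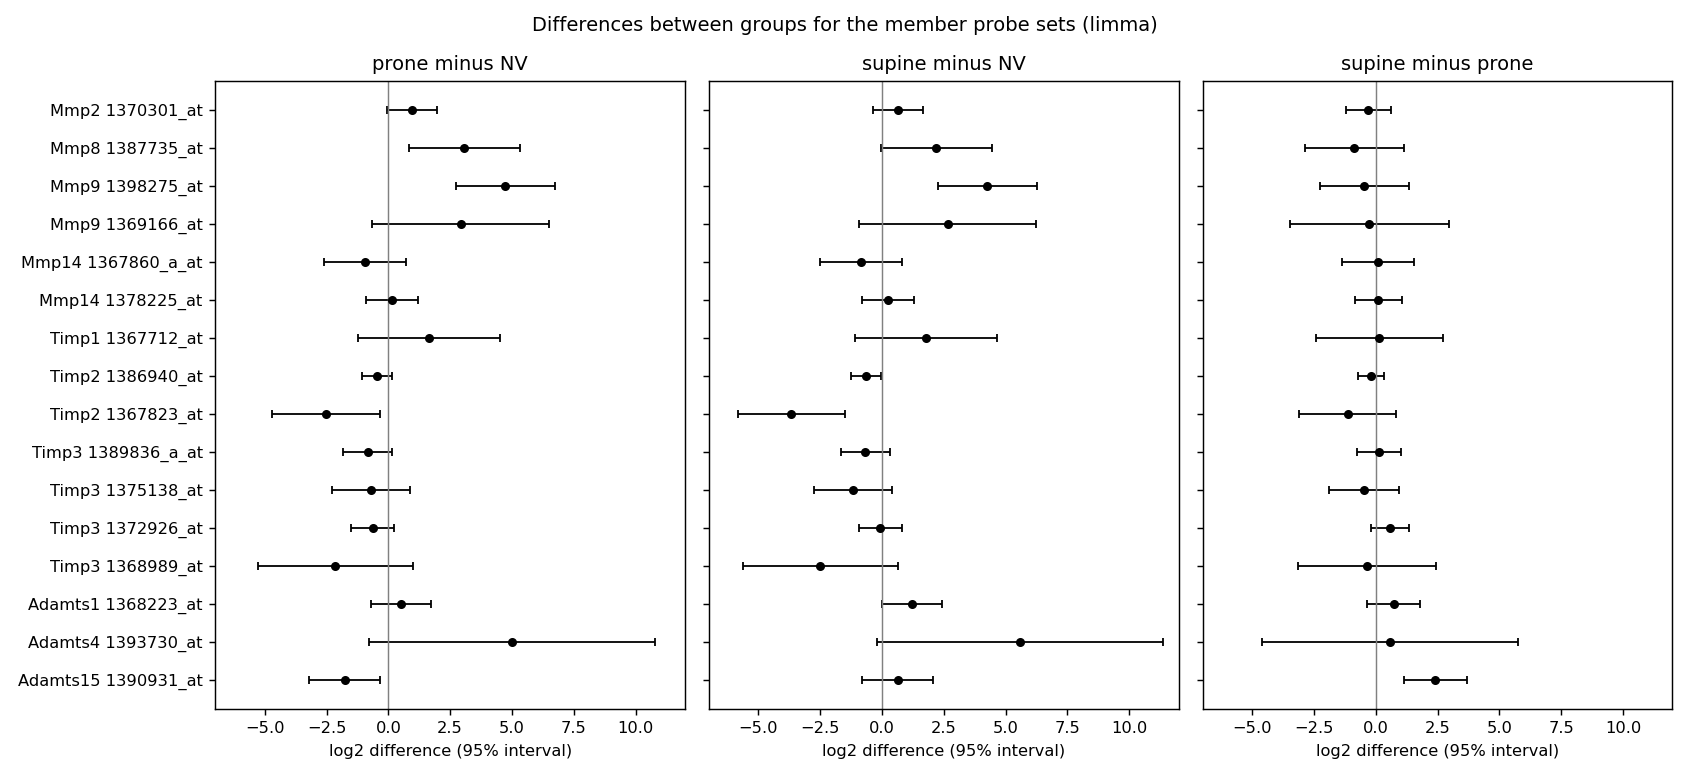
Log2 differences of the 16 member probe sets (rows) with limma's 95% intervals for prone minus NV, supine minus NV and supine minus prone. Intervals of the upper Mmp9 row lie above 0 in both comparisons with NV lungs, those of the lower Timp2 row below 0, and only Adamts15 has an interval clear of 0 between positions.

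Other genes of the same pathways were read from lists. None passed over all probe sets in any of the 4 comparisons. Of 20 other metalloproteinases listed, 7 were tested, and 6 were lower in ventilated than in NV lungs, as were 56% of all probe sets (median -0.60, against -0.10 over all). Mmp11, stromelysin-3, read 3.69, 3.14 and 3.59 in prone and 3.999, 5.54 and 3.31 in supine lungs, against 7.74 and 7.41 in NV lungs, a difference of -3.69 ± 0.55 over both positions (adjusted p = 0.0592). Mmp15, a membrane-bound metalloproteinase, differed by -1.40 ± 0.29 (adjusted p = 0.101). All ventilated arrays were below both NV arrays for both genes. Mmp11 reached the filter level on both NV arrays but, among ventilated arrays, only on the one that read 5.54. It thus passed the filter only through NV lungs, so its difference, its separation and its place in the count of lower genes carry no weight as evidence. Mmp19, the gene of this list that was higher, was under the filter level on both NV arrays. Its higher mean carries no weight either.

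Among 6 tested of 16 other ADAMTS genes 4 were higher, as were 44% of all probe sets, led by Adamts12 (1.15 ± 0.39, adjusted p = 0.187) and the versican-cutting Adamts9 (1.70 ± 0.75, adjusted p = 0.271). Of 6 tested ADAM proteases, which shed proteins from the cell surface, Adam8 stood at 1.62 ± 0.63 and Adam33 at -0.82 ± 0.51 (adjusted p = 0.231 and 0.409). The other protease inhibitors had the largest median, 1.497 over 8 tested of 10 listed. Tfpi2, A2m and Serpina3n among them were under log2 5 on both NV arrays. They passed the filter only through ventilated lungs, so this median and their differences carry no weight as evidence. Tfpi2 stood at 4.95 ± 2.01 (adjusted p = 0.243) and A2m, a broad plasma protease inhibitor, at 3.07 ± 1.31 (adjusted p = 0.258). Tfpi2 had the split of Adamts4, reading 12.18, 9.29 and 5.93 in prone and 11.21, 5.30 and 11.70 in supine lungs, against 4.36 and 4.28 in NV lungs.

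Activators and binding partners of metalloproteinases numbered 12 tested, 8 higher and 4 lower in ventilated lungs (median 0.28). The plasminogen activators, whose product plasmin can activate metalloproteinases, went opposite ways. Plau, the urokinase type, differed by -1.52 ± 0.38 (adjusted p = 0.122) and Plat, the tissue type, by 1.14 ± 0.32 (adjusted p = 0.141), each without overlap between ventilated and NV arrays. Matrix substrates showed a median of 0.31 over 14 tested, 9 higher and 5 lower, with Hspg2 (perlecan) at 1.44 ± 0.66 and Lama5, a laminin chain, at 0.76 ± 0.40 (adjusted p = 0.282 and 0.34).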

How the data were processed

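The table deposited by the authors holds 1 log2 value per probe set and array. The submitters' processing notes name GCRMA and Partek 6.5; targets were labelled from 300 ng of total RNA, per the labels' protocols. Filters, further centring and the authors' own test were not stated. Groups came from the sample titles. Symbols came from GEO's platform annotation; all 10 member genes matched the RefSeq table of GRCr8 by gene identifier, and 0 symbols changed. 28 array control probe sets were left out of the tests. No 2 arrays held identical values.

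A model with a mean for each group was run over the 8 arrays together in limma 3.58.1 under R 4.3.3 (lmFit, eBayes; 5 residual and 2.51 prior degrees of freedom), two-sided, with Benjamini-Hochberg adjustment over all 16896 tested probe sets; the procedure was tested on simulated data. Errors after ± are its standard errors. The members, lists and alternatives were chosen with earlier results of these data known. All members were named; of each pathway list, genes that passed or else the 2 with the smallest p in all ventilated against NV lungs; and the 3 nearest profiles of the 5 member genes most variable over the arrays, each gene read by its probe set of highest mean. Marker genes and Tfpi2's array values were named after they were seen, and the promoter motifs and the signs within replicate pairs were added after the data were seen. Replicate numbers are shared between groups in the titles. Deviations from group means correlated at 0.11 to 0.72 in the 7 same-numbered pairs and at -0.59 to 0.40 in the other 14. The 2 NV arrays deviate from their mean by mirror amounts, so pairs that include them are not independent. A pairing by number would thus come from the data, not from the labels. The main model held no pairing, and the number entered only as a block in alternatives and in the signs within replicate numbers. Alternatives varied the filter, scaling, replicate block, array weights, prior and the arrays left out. Precision is limited by the number of arrays.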

Additional observations from a re-analysis of the deposited data

Results flagged for a closer look

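Adamts15 was singled out because its 3 prone arrays all lay below both NV arrays and its 3 supine arrays all lay above them. Supine minus prone was 2.41 log2 units, with means of 10.65 ± 0.37 in supine and 8.24 ± 1.13 in prone lungs (SD, n = 3 each). The test of that difference did not pass over all probe sets (limma, adjusted p = 0.942), and it was read by 1 probe set.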

How the results depend on the processing

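The cause of the changes below was not tested. Of the count of 0 member probe sets past the adjusted threshold in each comparison, array weights gave 9 in prone and 6 in all ventilated against NV lungs; those weights gave each of the 2 NV arrays 4.67 and prone replicate 1 0.28, and called 5724 of all probe sets in the prone comparison. The replicate block as a random term gave 1 (Mmp9) in prone and 1 in all ventilated against NV; as a fixed term it gave 0 throughout and changed no other member call. Without prone replicate 1 and supine replicate 1 together, 2 were called in prone (both Mmp9 probe sets) and 2 in all ventilated against NV lungs. Leaving out 1 array gave 0 to 1 in supine and 0 to 2 in all ventilated against NV lungs, the higher each time without supine replicate 2. Where that left 1 NV array, it was assumed to vary like the other groups. Of all probe sets, 9 passed in prone, 9 in supine and 24 in all ventilated against NV lungs, and 0 each with the fixed block. At a filter of log2 7 these were 0, 0 and 5, with no filter 35, 18 and 118, with an intensity trend 0 each, and with the random block 226, 26 and 242. Fitting only the groups compared gave 119 in prone and 0 in supine against NV lungs. Leaving out 1 array gave 0 to 115, 0 to 153 and 0 to 381. Centring the arrays moved the median prone difference of all probe sets from -0.12 to 0.03 and turned 1 member, Timp3 1372926_at in supine lungs, to 0.00050; the fixed block gave 0.023 there and single arrays left out gave -0.34 to 0.19. Mmp14 1378225_at turned in prone lungs to -0.042 with array weights and -0.21 without both first replicates (-0.21 to 0.51 over single arrays), and in all ventilated lungs to -0.094 without both first replicates. Of 286 supine minus prone values 25 changed sign, over 9 probe sets, none of them Adamts15. Array weights gave 0.65 for Mmp9 1369166_at and 0.33 for Timp3 1368989_at, which was 0.53 without both first replicates. Single arrays left out gave -1.46 to 0.049 for Mmp8, -1.24 to 0.17 and -1.51 to 1.11 for the Mmp9 probe sets 1398275_at and 1369166_at, -0.53 to 0.67 and -0.27 to 0.44 for Mmp14, -0.80 to 1.10 for Timp1, -0.18 to 0.34 and -1.60 to 0.29 for Timp3 1389836_a_at and 1368989_at, and -1.59 to 2.62 for Adamts4. Counts of members without overlap between supine and prone were 2 without supine replicate 3 (14.2% of all) and 6 without both first replicates (37.8% of all), alternatives added after seeing the data; smaller groups overlap less.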
